A study of Rattus norvegicus with 16 samples.

Results

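Enzymes that make and recycle nucleotides were followed in PCCl3 cells, a rat thyroid follicular cell line, after silencing of the thyroid transcription factor *Pax8*. The set comprised 9 genes chosen by symbol: *Tyms*, *Tk1*, *Rrm1*, *Rrm2*, *Dck*, *Dut*, *Paics*, *Hprt1* and *Ada*. Through RefSeq accessions, 8 of them were represented by 16 of the 41012 probes of an Agilent rat whole genome array, on which 8899 genes could be named in this way. *Tk1*, and a further EST probe of *Hprt1*, could be named only through the study's own table of changed probes, so that a change was a condition of their being named. These 2 probes are described without a test. Each hybridization set RNA of cells transfected with an siRNA against *Pax8* (siPax8) against a control in a 2-colour format, and the control was either PCCl3 cells labelled wild type (wt) or cells given a scrambled siRNA (siScramble). Both siRNAs were delivered with Lipofectamine at 10 ng/ml. All cells were grown in the same medium with serum, thyrotropin, insulin and other hormones. There were 4 biological replicates per comparison, each hybridized in both dye orientations, which gave 16 arrays. The sample labels call the first control wild type, the methods describe it as lipofectamine-treated, and a supplementary sheet describes it as untransfected, so the part of transfection itself in the wt comparison cannot be told apart from that of *Pax8* silencing. Both comparisons use the siPax8 condition and may share its RNA, so they cannot be taken as independent of each other. Silencing was transient, in a single cell line.

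Cells build deoxyribonucleotides along a de novo route, in which ribonucleotide reductase (a large subunit encoded by *Rrm1* and a small subunit encoded by *Rrm2*) reduces ribonucleotides and thymidylate synthase (*Tyms*) methylates dUMP to dTMP. The dUTPase encoded by *Dut* supplies that dUMP and keeps uracil out of DNA. Salvage kinases return free nucleosides to the pool: *Tk1* acts on thymidine and *Dck* on deoxycytidine and purine deoxynucleosides. On the purine side, *Paics* catalyses steps of de novo inosinate synthesis, *Hprt1* salvages hypoxanthine and guanine, and *Ada* deaminates adenosine and deoxyadenosine. Several of these genes are transcribed mainly in S phase, whereas *Hprt1* is often used as a reference gene because it is expressed in most cells. In thyroid follicular cells, thyrotropin drives both differentiated function and division.

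Promoter sequences were available for 8 of the 9 members from RefSeq (build GRCr8), each spanning 250 bases before to 50 bases after an annotated start; *Dut* had 2 such windows and *Rrm2* had none. The windows of 3 members are printed because they belong to the member that rose in both comparisons (*Hprt1*), to the member of which every probe was called lower in both (*Ada*), and to the S phase gene with an E2F-type match (*Tyms*). Each is written 5′ to 3′ on the strand of its gene, and capitals mark exact matches, on either strand, to the E2F-type words TTTCCCGC, TTTGGCGC, TTTCGCGC and TTTGCCGC, to the CCAAT box and to the GC box GGGCGG. No match overlapped another. The *Hprt1* window is chrX:137655494-137655793 on the plus strand, the *Ada* window chr3:172842234-172842533 on the minus strand and the *Tyms* window chr9:120776034-120776333 on the minus strand.
Hprt1: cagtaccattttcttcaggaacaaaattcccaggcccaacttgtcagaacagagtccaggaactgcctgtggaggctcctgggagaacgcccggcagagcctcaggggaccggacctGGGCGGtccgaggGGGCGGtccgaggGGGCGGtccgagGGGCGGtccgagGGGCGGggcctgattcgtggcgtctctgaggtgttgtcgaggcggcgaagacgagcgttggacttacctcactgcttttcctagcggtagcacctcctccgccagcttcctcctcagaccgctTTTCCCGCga
Ada: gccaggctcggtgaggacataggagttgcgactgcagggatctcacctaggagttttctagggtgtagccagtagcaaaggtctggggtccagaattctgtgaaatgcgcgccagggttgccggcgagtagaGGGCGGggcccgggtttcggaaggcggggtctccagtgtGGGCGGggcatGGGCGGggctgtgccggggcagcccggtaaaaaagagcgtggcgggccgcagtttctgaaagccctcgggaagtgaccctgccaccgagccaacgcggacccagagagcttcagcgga
Tyms: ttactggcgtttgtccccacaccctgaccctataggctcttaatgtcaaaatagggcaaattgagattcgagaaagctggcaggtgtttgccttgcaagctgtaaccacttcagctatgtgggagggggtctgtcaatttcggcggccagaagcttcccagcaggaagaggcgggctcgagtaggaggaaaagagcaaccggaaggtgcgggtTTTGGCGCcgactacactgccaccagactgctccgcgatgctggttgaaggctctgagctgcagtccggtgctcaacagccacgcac
An E2F-type word occurred in the windows of 2 members, 37 bases before the start in *Tyms* and 40 bases after it in *Hprt1*, and such a word was present in 2.14% of all 33469 promoter windows. The GC box was found in 6 members, with 6 copies in *Dck*, 5 in *Hprt1*, 3 in *Ada* and 1 each in *Tk1*, *Rrm1* and the upstream window of *Dut*, against 33.1% of all windows holding at least 1. CCAAT was seen only in *Rrm1* among the members and in 37.5% of all windows. *Paics* had no match to any of these words. These are matches of letters in a window and not measured sites.

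*Pax8* itself was measured by 1 probe. Against wt cells its log2 ratio was -0.84, -0.57, -0.59 and -0.26 in replicates 1 to 4 (mean -0.56 ± 0.24, SD, n = 4; limma adjusted p = 0.000496), and against siScramble cells it was -0.58, -0.29, -0.12 and -0.01 (mean -0.25 ± 0.25; adjusted p = 0.147). The ratio of the targeted transcript was thus below 0 in every replicate, but replicate 4 against siScramble was close to 0. Of the arrays against siScramble, 7 were below 0 and 1 was above. The transcript passed the adjusted p threshold of 0.005, that of the study, only against wt cells. The 12 probes of thyroid follicular markers, among them thyroglobulin and thyroperoxidase, each rose above background on at least 1 array of either comparison. Markers of other cell types mostly did so on none. On the arrays against wt, 4 of 6 C cell, 3 of 5 fibroblast and 3 of 3 endothelial probes never rose above background. Of 3 leukocyte probes, 1 was not above background there. The share of an array's spots well above background ran from 54.0% to 60.8% for Cy3 and from 52.0% to 59.1% for Cy5. All 16 member probes were above background in both channels on 8 of 8 arrays of each comparison.

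Most members were lower in siPax8 than in wt cells, *Hprt1* was higher and *Paics* did not move. Of the 16 member probes, 9 from 6 genes (*Tyms*, *Rrm1*, *Rrm2*, *Dck*, *Dut* and *Ada*) were called lower and 4, all of *Hprt1*, were called higher. Over the whole array, 8.19% of probes were called lower and 7% higher, so the members' shares of 56.2% and 25% lay above the background in both directions. The whole array includes many dim probes, whereas all member probes were above background. With dim probes left out, 3311 of 23967 probes were called lower and 2848 higher, beside 10 and 4 of the 16 member probes. The 4 higher probes stand for a single gene. The falls were small, since the probes called lower kept between 59.0% and 88.9% of the wt level. Without *Hprt1*, the 12 remaining probes had a median log2 ratio of -0.23, and over all probes the median was -0.0036. Changes in RNA per cell and in the share of cells in S phase cannot be told apart in these cultures. With intensities processed by the Agilent software, 5 member probes were called, of which 1 was lower; the median over the 16 was -0.22 there and -0.20 in the main analysis, and the probes called over the whole array numbered 1754 in place of 6228.

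Against siScramble cells fewer probes were called. The 4 *Hprt1* probes were again called higher, and 4 probes were called lower: both of *Ada*, 1 of 2 of *Dut* and 1 of 2 of *Rrm2*. These are 25% of the member probes in either direction, beside 0.849% of all probes called lower and 1.18% called higher. With dim probes left out, 280 of 23922 probes were called lower and 453 higher, beside 2 and 4 of the 16 member probes. The 4 falls left 82.1% to 85.5% of the siScramble level. The median over the 12 probes without *Hprt1* was -0.20. Each of the 4 lower calls was lost when any single replicate was left out (4 member probes called, all of *Hprt1*, without replicate 1, 2, 3 or 4). Lower calls over the whole array then fell from 348 to 111, 34, 49 and 112 without replicates 1, 2, 3 and 4. Only 1 of the 4 lower calls remained with loess normalization alone. That setting also moved the array-wide calls from 348 lower and 483 higher to 168 and 408. No member probe passed with the Agilent-processed intensities, where 29 probes of the array did in place of 831, while the median over the 16 member probes was -0.17 in both analyses.

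**Figure D1:**
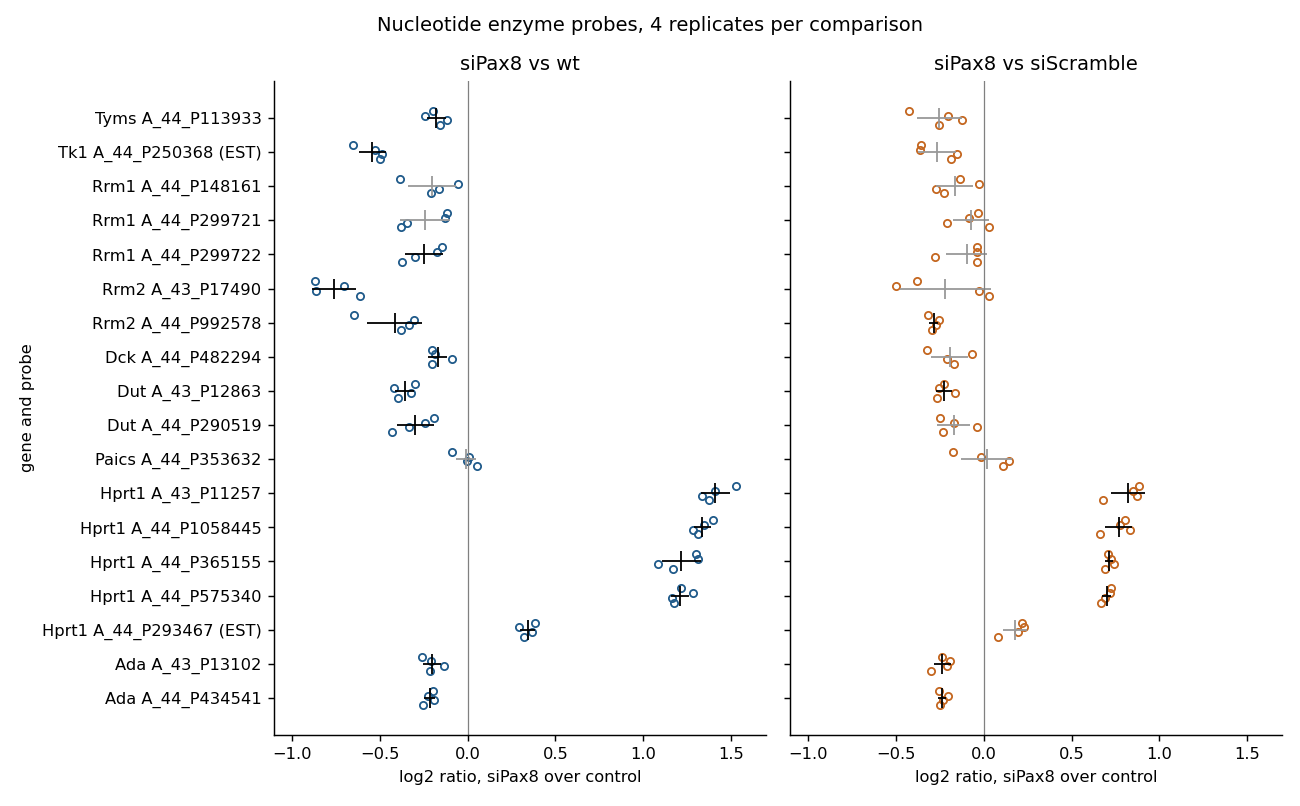
Log2 ratios of siPax8 over wt (left) and over siScramble (right) for the 18 member probes. Open circles are the 4 replicates (dye swaps averaged), and crosses are the mean ± SD, black where called at an adjusted p below 0.005 and grey otherwise. The *Hprt1* RefSeq probes lie near 1.21 to 1.41 on the left and 0.70 to 0.82 on the right, and most other probes lie between -0.1 and -0.8.

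The ribonucleotide reductase small subunit gave the largest fall among the members. The *Rrm2* probe A_43_P17490 had log2 ratios of -0.87, -0.70, -0.86 and -0.61 against wt (mean -0.76 ± 0.13; limma adjusted p = 5.25e-06), which is 59.0% of the wt level. Against siScramble the same probe split, with -0.38 and -0.50 in replicates 1 and 2 but -0.02 and 0.03 in replicates 3 and 4 (mean -0.22 ± 0.26; adjusted p = 0.226). The other *Rrm2* probe, A_44_P992578, gave -0.64, -0.31, -0.33 and -0.38 against wt (mean -0.41 ± 0.16; adjusted p = 0.000423) and -0.32, -0.25, -0.27 and -0.29 against siScramble (mean -0.28 ± 0.03; adjusted p = 0.00132). So both probes were below 0 in all 4 replicates against wt, but only the second was against siScramble. The siScramble call of A_44_P992578 was lost in 7 of 19 alternative analyses. The probes were named by the same transcript accession, and which part of it each one reads was not examined.

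For *Rrm1*, the large subunit, 3 probes were measured and all were lower in every replicate against wt, with means of -0.20 ± 0.14, -0.24 ± 0.14 and -0.25 ± 0.11. Only the last, A_44_P299722, was called (replicates -0.14, -0.17, -0.30 and -0.37, adjusted p = 0.00209, limma), at 84.3% of wt. That call was lost in 6 of 19 alternatives. The second, A_44_P299721, was called in 8 of 19, and its wt mean ran from -0.46 to -0.02 over them. Its single arrays ran from -0.65 to 0.19 against wt, and 4 were below and 4 above 0 against siScramble. Against siScramble the same 3 probes had means of -0.17 ± 0.11, -0.07 ± 0.10 and -0.10 ± 0.12 and none was called, the lowest adjusted p being 0.0617. On the wt arrays the *Rrm1* falls were smaller in size than those of *Rrm2*, a difference between genes that was not tested.

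*Tyms* was represented by a single probe. Its log2 ratios were -0.20, -0.24, -0.12 and -0.16 against wt (mean -0.18 ± 0.05; limma adjusted p = 0.00267) and -0.43, -0.20, -0.12 and -0.26 against siScramble (mean -0.25 ± 0.13; adjusted p = 0.0226). All 8 replicate values were negative; the fall against siScramble was the larger in mean but varied more and was not called. The wt call was lost in 10 of 19 alternatives. *Dut*, which feeds dUMP to thymidylate synthase, was lower on both of its probes against wt: A_43_P12863 gave -0.30, -0.42, -0.32 and -0.39 (mean -0.36 ± 0.06; adjusted p = 5.14e-05) and A_44_P290519 gave -0.19, -0.24, -0.33 and -0.43 (mean -0.30 ± 0.10; adjusted p = 0.000653). Against siScramble the first had -0.23, -0.25, -0.16 and -0.26 (mean -0.23 ± 0.05; adjusted p = 0.00485) and the second -0.25, -0.17, -0.04 and -0.23 (mean -0.17 ± 0.10; adjusted p = 0.0432). Every *Dut* replicate was below 0, and the call of A_43_P12863 against siScramble sat just inside the threshold and was lost in 12 of 19 alternatives, among them the replicate block on 8 arrays (adjusted p = 0.0112).

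Among the salvage kinases, the *Dck* probe was lower by a small amount in all replicates: -0.20, -0.18, -0.09 and -0.20 against wt (mean -0.17 ± 0.05; adjusted p = 0.00368, limma) and -0.32, -0.07, -0.21 and -0.17 against siScramble (mean -0.19 ± 0.11; adjusted p = 0.0359). Only the former was called, and in 9 of 19 alternatives it was not. The probe was dim, with a control level of 7.44 against wt, the lowest of the RefSeq-named member probes. The size of its fall depended on the processing. Over the alternatives its mean ran from -0.41 to -0.16 for wt and from -0.39 to -0.15 for siScramble. The EST probe assigned to *Tk1* gave -0.65, -0.53, -0.49 and -0.50 against wt (mean -0.54 ± 0.08) and -0.36, -0.36, -0.15 and -0.19 against siScramble (mean -0.27 ± 0.11). It was negative in all 8 replicates. Its values in the 2 comparisons did not overlap, a feature whose share over all probes was not counted. As said, this probe was named through a list of changed probes, so its fall is a description.

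*Ada* fell on both of its probes in both comparisons. Probe A_43_P13102 had -0.26, -0.21, -0.14 and -0.22 against wt (mean -0.20 ± 0.05; limma adjusted p = 0.00118) and -0.24, -0.19, -0.21 and -0.30 against siScramble (mean -0.24 ± 0.05; adjusted p = 0.00434). Probe A_44_P434541 had -0.20, -0.22, -0.19 and -0.25 against wt (mean -0.22 ± 0.03; adjusted p = 0.000533) and -0.26, -0.20, -0.23 and -0.25 against siScramble (mean -0.23 ± 0.02; adjusted p = 0.00262). The 16 values all lay between -0.30 and -0.14, so that the siPax8 level was 85.0% to 86.8% of either control. The wt calls of the 2 probes were lost in 5 and 4 of 19 alternatives and the siScramble calls in 11 and 10. With the replicate block on 8 arrays A_44_P434541 missed the threshold against both controls (adjusted p = 0.00651 and 0.0152), and its mean over the alternatives ran from -0.39 to -0.05 for wt and from -0.41 to -0.06 for siScramble, smallest with siPax8 in Cy5 only.

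*Paics*, of the de novo purine route, stayed near 0. Its replicates were -0.09, 0.01, 0.00 and 0.05 against wt (mean -0.01 ± 0.06; limma adjusted p = 0.919) and -0.17, -0.01, 0.14 and 0.11 against siScramble (mean 0.02 ± 0.14; adjusted p = 0.921). The values fell on both sides of 0 in both comparisons, and the SE of the means was 0.03 and 0.05.

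*Hprt1* was higher in siPax8 cells on every probe, array and replicate that carried a RefSeq name. Probe A_43_P11257 gave 1.53, 1.41, 1.33 and 1.37 against wt (mean 1.41 ± 0.08; limma adjusted p = 6.54e-08), which is 266% of the wt level. Against siScramble it gave 0.89, 0.85, 0.87 and 0.68 (mean 0.82 ± 0.10; adjusted p = 0.00015), or 177% of that control. Probe A_44_P1058445, printed 10 times on each array, had means of 1.33 ± 0.05 and 0.77 ± 0.08. The lowest and highest of its 10 spots were 1.32 and 1.35 against wt, and 0.75 and 0.79 against siScramble. The remaining RefSeq probes, A_44_P365155 and A_44_P575340, had means of 1.22 ± 0.11 and 1.21 ± 0.05 against wt and of 0.71 ± 0.02 and 0.70 ± 0.03 against siScramble. The lowest replicate against wt over these 4 probes was 1.08 and the highest against siScramble was 0.89, so the replicate values of the 2 comparisons did not overlap. The share of all probes without such overlap was not counted. On single slides, each with 2 arrays of either comparison, A_43_P11257 lay at 1.34 to 1.45 against wt, and at 0.67 to 0.90 against siScramble. The dim EST probe of *Hprt1*, named through the table of changed probes, had means of 0.34 ± 0.04 and 0.18 ± 0.07 and depended on the background method, with 0.32 to 1.61 against wt over the alternatives.

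These *Hprt1* calls against wt held in each of the 19 alternatives on all 4 RefSeq probes. Against siScramble, A_43_P11257 missed the threshold with siPax8 in Cy5 only (adjusted p = 0.00502), and all 4 missed it with Agilent-processed intensities (adjusted p from 0.00647 to 0.00667), with means that remained at 0.71 to 0.84. For comparison, 20 probes of 15 other genes in common use as references were tabulated. Against wt 4 were lower (20%, beside 8.19% of all probes) and 4 were higher (20%, beside 7%), with a median of 0.05. With dim probes left out, 3 of the 20 were lower and 4 higher against wt, beside 3311 and 2848 of 23967 probes. Against siScramble 0 were lower (beside 0.849%) and 2 were higher (10%, beside 1.18%), with a median of 0.03 (limma, adjusted p below 0.005). These genes were thus not a set without change, although their medians lay near 0. With loess normalization alone, none of the 4 lower calls against wt remained. The highest of them were both probes of *B2m*, the light chain of class I molecules, at 0.48 ± 0.04 and 0.59 ± 0.04 against wt and 0.29 ± 0.05 and 0.29 ± 0.04 against siScramble, each called. *Sdha* was higher against wt (0.19 ± 0.06), and *Ppib* (-0.19 ± 0.08), *Gusb* (-0.19 ± 0.06) and *Rplp0* (-0.18 ± 0.06) were lower. *Gapdh* was not called on either probe, at 0.14 ± 0.21 and 0.03 ± 0.22 against wt. *Actb*, *Ppia*, *Tbp*, *Ywhaz*, *Rpl13a*, *Pgk1* and *Eef1a1* were not called, and the reference probes not called ranged from -0.13 to 0.33 against wt. Every *Hprt1* RefSeq probe thus lay above all 20 of these probes in both comparisons. Interferon response genes were also higher on the arrays against wt, with 19 of 22 probes called higher (86.4%, beside 7% of all probes) and a median of 1.17. Against siScramble 2 of 22 were called higher (9.09%, beside 1.18%), with a median of 0.30. Whether that response had a part in the *Hprt1* values was not tested.

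**Figure D2:**
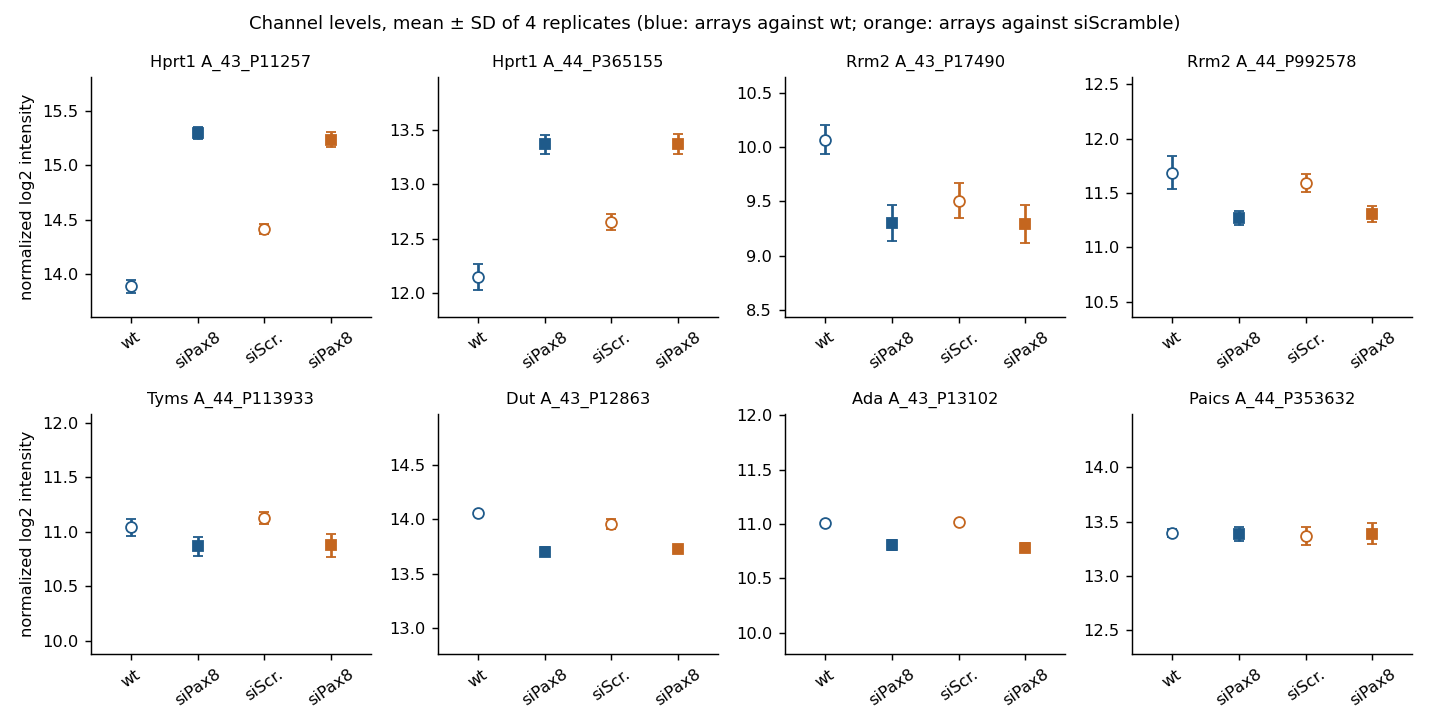
Normalized log2 channel intensity (mean ± SD, n = 4 replicates) of 8 member probes in each condition. Open circles are controls, filled squares are siPax8, blue marks the arrays against wt and orange those against siScramble; every panel spans the same range of log2 units. The *Hprt1* siPax8 levels are alike in both sets of arrays, while wt lies below siScramble, and for *Rrm2* A_43_P17490 wt lies above it.

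The levels of the separate channels showed where the comparisons diverged. For *Hprt1* A_43_P11257 the normalized log2 intensity was 15.30 ± 0.06 in siPax8 cells on the arrays against wt and 15.24 ± 0.07 on those against siScramble. The control level was 13.89 ± 0.06 in wt and 14.42 ± 0.04 in siScramble cells, so the order was wt, siScramble, siPax8. For *Rrm2* A_43_P17490 the siPax8 levels were 9.30 ± 0.17 and 9.29 ± 0.18, and the controls were 10.07 ± 0.13 (wt) and 9.51 ± 0.16 (siScramble), which is the opposite order. For *Ada* A_43_P13102 wt and siScramble were at 11.01 ± 0.01 and 11.02 ± 0.01, which do not differ beyond their spread, and siPax8 was at 10.81 ± 0.04 and 10.78 ± 0.04. The *Paics* channels all lay between 13.37 and 13.39.

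The log2 ratio against wt minus that against siScramble, which is an indirect estimate of siScramble over wt, was tested in 1 fit. That fit treated the replicate ratios of the comparisons as independent, which they may not be. The difference was called for the 4 *Hprt1* RefSeq probes and for no other of the 16, beside 3.35% of all probes. The estimates were 0.59 ± 0.06 (SE) for A_43_P11257, 0.57 ± 0.05 for A_44_P1058445, 0.50 ± 0.05 for A_44_P365155 and 0.51 ± 0.04 for A_44_P575340 (limma adjusted p = 0.000129, 3.9e-05, 0.000202 and 2.4e-05). About this much of the *Hprt1* ratio against wt was therefore also present in siScramble relative to wt cells. *Rrm2* A_43_P17490 had a difference as large in the other direction, -0.55 ± 0.11, which missed the threshold (adjusted p = 0.011) and passed it with replicate number as a block (adjusted p = 0.00228), although the numbers did not clearly pair the samples. The EST probe of *Tk1* differed by -0.28 ± 0.06. The other RefSeq probes of the members ranged from -0.17 for *Rrm1* A_44_P299721 to 0.07 for *Tyms*, and *Dck*, *Paics* and both *Ada* probes lay between -0.03 and 0.03. A missed threshold does not show that these were equal in wt and siScramble cells.

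**Figure D3:**
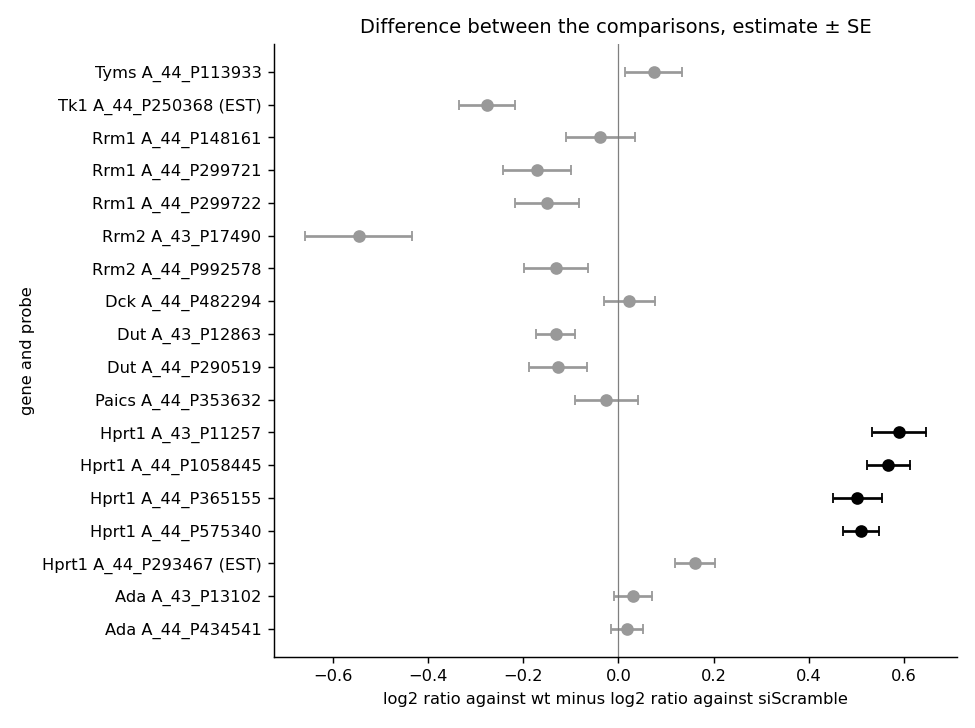
Difference between the log2 ratio against wt and that against siScramble for the 18 member probes (estimate ± SE, 4 replicates per comparison). Black points were called at an adjusted p below 0.005; these are the 4 *Hprt1* RefSeq probes at 0.50 to 0.59, and the lowest point is *Rrm2* A_43_P17490 at -0.55.

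Other genes of nucleotide metabolism gave a wider view. From lists of 86 further genes in 8 groups, 47 had a RefSeq-named probe (59 probes). Against wt, 14 of these probes were called lower (23.7%, beside 8.19% of all probes) and 3 higher (5.08%, beside 7%), with a median of -0.04. With dim probes left out, 14 of 43 were lower and 3 higher against wt, beside 3311 and 2848 of 23967 probes. Against siScramble 2 were lower (3.39%, beside 0.849%) and 1 was higher (1.69%, beside 1.18%), with a median of -0.04. The siScramble count was 7 with all 8 arrays and the replicate as a block, where the calls over the whole array rose from 831 to 1692. The medians over all probes were -0.0036 and -0.0037. *Nme3*, a nucleoside diphosphate kinase, had the largest change, at -0.96 ± 0.06 against wt (limma adjusted p = 2.6e-07) and -0.34 ± 0.10 against siScramble (adjusted p = 0.00432). *Mthfd1*, a folate enzyme that supplies one-carbon units for purine and thymidylate synthesis, was at -0.55 ± 0.07 (adjusted p = 6.3e-06) and -0.35 ± 0.03 (adjusted p = 0.000611). The AMP deaminase *Ampd3* rose, by 0.37 ± 0.15 (adjusted p = 0.000783) and 0.56 ± 0.16 (adjusted p = 0.00236). Its single arrays ran from -0.16 to 0.98 against wt, its means over the alternatives from 0.07 to 0.67 for wt and from 0.24 to 0.88 for siScramble, and 5 of 19 calls were lost in each comparison, that against wt also with the replicate block (adjusted p = 0.00927). For *Nme3* the siScramble call was lost in 7 of 19 alternatives, with means from -0.50 to -0.19, and for *Mthfd1* in 4. None of the siScramble calls of these 3 genes was kept with the Agilent-processed intensities.

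Of the 7 probes of the thymidylate and folate list, which surrounds *Tyms*, 4 were called lower against wt and none higher, with a median of -0.18, and 1 was called lower against siScramble with a median of -0.19. The single lists are small, and their counts are to be read beside the 8.19% of all probes called lower and 7% called higher. Nucleotide kinases had 3 of 13 probes lower against wt, *Nme3* among them. In pyrimidine de novo synthesis *Umps*, which makes UMP, was lower (-0.32 ± 0.14), as 1 of 2 probes. Of 12 purine salvage and adenosine probes 1 was lower against wt (8.33%, near the share of all probes), the ecto-nucleotidase *Nt5e* (-0.27 ± 0.11), and 2 were higher, *Ampd3* and *Ampd1* (0.37 ± 0.05 on a probe that ran from 0.32 to 1.20 over the alternatives; the other *Ampd1* probe, at -0.04, was above background on 0 of 8 arrays). Purine de novo genes, the list of *Paics*, had 1 of 7 probes lower, that of *Prps1* (-0.21 ± 0.06), and a median of 0.00. The nucleoside transporter *Slc29a3* (-0.39 ± 0.06) was the only one of 6 called in its list, and the nucleotidase *Nt5c3b* (-0.24 ± 0.08) was 1 of 2 probes called lower among 9 for dNTP balance. Pyrimidine salvage had 1 lower and 1 higher of 3 probes. Against siScramble, beyond *Nme3*, *Mthfd1* and *Ampd3*, no probe of these lists was called.

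**Figure D4:**
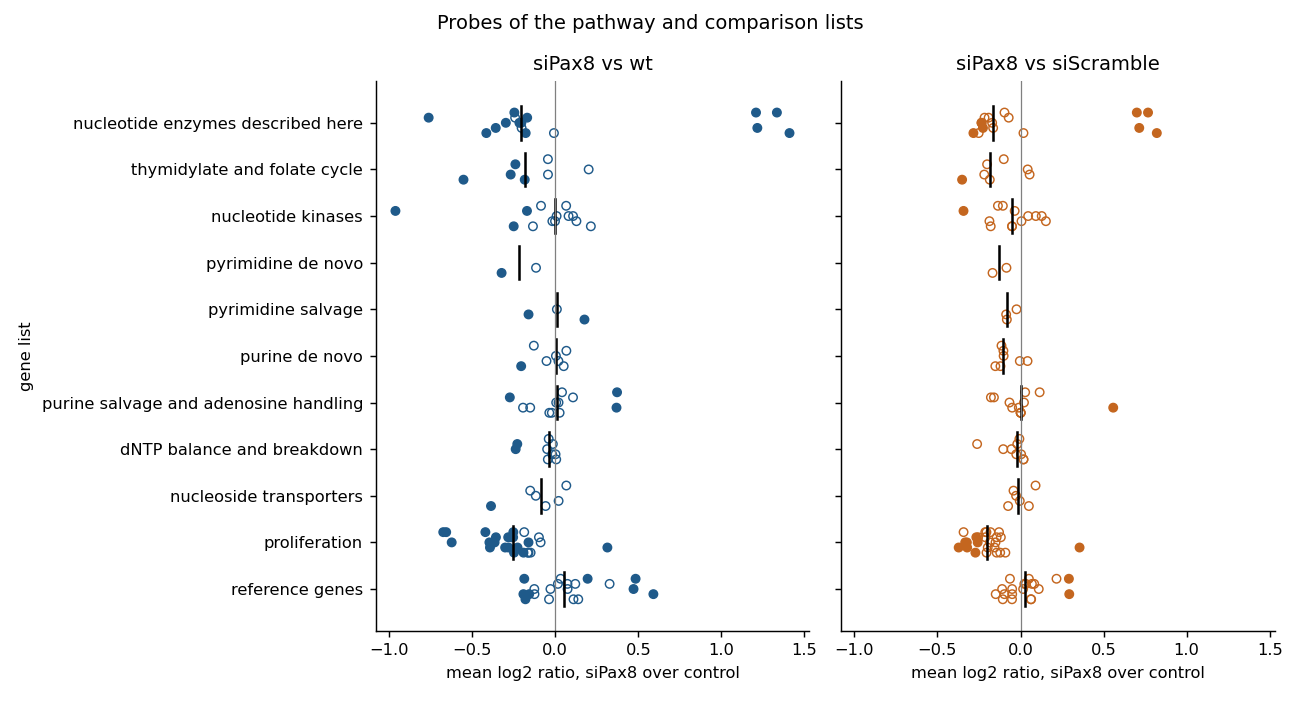
Mean log2 ratios (n = 4 replicates) of the 16 RefSeq-named member probes and of the probes of each list, against wt (left) and siScramble (right). Each circle is a probe, filled where called at an adjusted p below 0.005, and black bars are list medians. The proliferation list (medians -0.25 and -0.20) lies to the left of 0 on both sides, and the reference genes lie around 0.

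Genes of DNA replication and mitosis, which are transcribed in cycling cells as *Tyms*, *Rrm1*, *Rrm2* and *Tk1* are, were mostly lower too. Of 25 proliferation probes from 19 genes, 18 were called lower (72%, beside 8.19% of all probes) and 1 higher (4%, beside 7%) against wt, with a median of -0.25. Against siScramble 7 were called lower (28%, beside 0.849%) and 1 higher (4%, beside 1.18%), with a median of -0.20. With dim probes left out, 18 were lower and 1 higher against wt, beside 3311 and 2848 of 23967 probes. Against siScramble the same filter gave 6 and 1, beside 280 and 453 of 23922. In both comparisons 24 of the 25 probes had a mean below 0. Among the called probes, the largest changes against wt were in *Birc5*, a mitotic regulator (-0.67 ± 0.12), in the primase subunit *Prim1* (-0.66 ± 0.25) and in *Orc6* of the origin recognition complex (-0.42 ± 0.11). Against siScramble they were in the cyclins *Ccnb2* (-0.37 ± 0.10) and *Ccnb1* (-0.33 ± 0.07; adjusted p = 0.00548 with the replicate block) and in the kinase *Aurkb*, which was higher (0.36 ± 0.04). *Birc5* was at -0.34 there and not called. The siScramble count fell to 2, 0, 0 and 1 without replicates 1, 2, 3 and 4, with list medians of -0.19, -0.22, -0.21 and -0.18, as the calls over the whole array fell from 831 to 351, 116, 182 and 367. Whether the share of dividing cells had a part in the values of the members was not tested.

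The genes most like each member were sought by Pearson correlation over the 8 replicate log2 ratios, among 5072 probes with 1 RefSeq symbol and a mean log2 intensity above 8. These values share arrays and may share siPax8 RNA, and with 8 points many high coefficients occur, so they are a description. *Hprt1* was followed most closely by *Klf6* (r = 0.993), *Cytip* (0.992) and *Atf3* (0.991), with means of 0.94, 1.16 and 0.54 against wt and 0.21, 0.60 and -0.29 against siScramble. The offset between the comparisons enters these coefficients, and *Atf3* was below 0 against siScramble. Each member was taken on its brightest probe, so the neighbours describe that probe. *Rrm2* A_44_P992578 was nearest to *Atp6v0c* (0.974), *Cdkn2aipnl* (0.97) and *Gipc1* (0.967). *Rrm1* A_44_P148161, called in neither comparison, was nearest to *Hnrnpa1* (0.969), *Cdkn2aipnl* (0.966) and *Lmnb1* (0.959). It correlated by 0.10 and 0.26 with the other *Rrm1* probes, which correlated by 0.95 with each other. Probes of one gene correlated by 0.56 for *Rrm2*, 0.52 for *Ada*, 0.74 for *Dut* and 0.973 to 0.996 for *Hprt1*. *Dut* was nearest to *Tle2* (0.978), *C19h19orf53* (0.97) and *Abraxas1* (0.962), and *Tyms* to *Pa2g4* (0.948), *Pole3* (0.944) and *Yipf4* (0.934). The lowest leading coefficient was that of *Dck*, with *Lgals1* (0.853), *Kifc1* (0.849) and *Efemp2* (0.827). *Ada* came closest to *Tti2* (0.967), *Cblb* (0.937) and *Map1lc3b* (0.923), *Paics* to *Tcf12* (0.969), *Lamp2* (0.968) and *Vegfb* (0.967), and the *Tk1* EST to *Arg2* (0.99), *Cab39l* (0.982) and *Atp5mc2* (0.978).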

How the data were processed

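Expression was measured on 16 Agilent 2-colour arrays (4 slides of 4). Per the file headers, the authors deposited scanner intensities (mean spot and median background, Cy3 and Cy5), intensities processed by Feature Extraction 10.1.1.1, and log10 ratios of Cy5 over Cy3, which were not used. They also deposited a table of normalized log2 ratios. Its columns had medians from -7e-04 to 0.0083 and correlated from -0.999 to -0.993 with the ratios computed here, so it holds control over siPax8; its sign was turned and it served as an alternative. The centring of that table and the background method behind it are not given in the sources used here.

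In R 4.3.3 with limma 3.58.1, intensities were corrected by normexp (offset 50), loess-normalized within arrays with control and outlier spots at weight 0, and quantile-normalized over all channels. Repeat spots and dye swaps were averaged to 4 log2 ratios per probe and comparison. Deviations of dye-swapped arrays of a replicate correlated by 0.12 to 0.51, although replicate 2 against wt correlated more with another number (0.20), and the replicate block had consensus correlations of -0.12 against either control. Each comparison was fitted with lmFit and eBayes and adjusted by Benjamini-Hochberg over 41012 probes; an adjusted p below 0.005 (two-sided) was called. The number of arrays limits the precision, and p-values measure the spread between replicate samples. The fits were tested on simulated data. Alternatives covered background, normalization, dyes, filters, blocks, threshold and left-out replicates.

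Probes were named by RefSeq accession (10768 probes; 30244 had no symbol). The study's columns of fold changes and p-values were not used. Members, lists and the rule for named genes (all members and reference genes, the largest called list genes, and the 3 most correlated genes) were chosen with earlier results of these data known. Some genes of these lists are counted but not reported by name here. Sequencing and reporter data were not analysed here.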

Additional observations from a re-analysis of the deposited data

Results flagged for a closer look

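The log2 ratio of *Hprt1* differed between the comparisons on each of its 4 RefSeq-named probes. Against wt minus against siScramble it was 0.59 for A_43_P11257, 0.57 for A_44_P1058445, 0.50 for A_44_P365155 and 0.51 for A_44_P575340. Each was tested by limma on the 8 replicate ratios, and the replicates of the comparisons did not overlap. Over all probes, 3.35% were called for this difference, while the share without overlap was not counted.

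In 2 sets of 4 replicates a single value stood apart from the others. For *Rrm1* A_44_P299722 against siScramble, replicate 3 was at -0.27 while the others lay near -0.04. For *Dck* against wt, replicate 3 was at -0.088 while the others lay between -0.20 and -0.18. Chance marks about 1 in 20 sets of 4 in this way, and such sets were examined for all 18 member probes in both comparisons.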

How the results depend on the processing

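For the member probes, 251 of 304 values against wt and 250 of 304 against siScramble kept direction and side of the threshold over 19 alternatives per probe. Signs turned in 9 of them, none of a called value: *Paics* against wt became 0.0037 with loess only and with Aquantile (the same ratios by construction), 0.056 with siPax8 in Cy5 only and 0.019 without replicate 1 (-0.028 to 0.019 over left-out replicates), and against siScramble -0.087 with siPax8 in Cy3 only, -0.025 without replicate 3 and -0.014 without replicate 4 (-0.025 to 0.081). With siPax8 in Cy3 only, *Rrm1* against siScramble became 0.13 (A_44_P299721) and 0.035 (A_44_P299722). Outside the members, *Gapdh* A_44_P363377 against wt became -0.077 with siPax8 in Cy3 only, -0.0075 without replicate 3 and -0.011 without replicate 4 (-0.011 to 0.14). Against siScramble, *Gapdh* (-0.0904) turned with siPax8 in Cy3 only and *Slc29a3* (0.084) with siPax8 in Cy5 only. The cause was not tested.

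Called member probes numbered 13 against wt and 8 against siScramble. With an offset of 10 they were 8 and 4, beside 4476 and 659 of all probes in place of 6228 and 831. Agilent-processed intensities gave 5 and 0, beside 1754 and 29 of all probes. Against siScramble, loess only and Aquantile gave 5, beside 576 of all probes, and siPax8 in Cy5 only gave 3, beside 208. Leaving out a replicate gave 9 to 12 against wt, beside 3351 to 6931 of all probes. Against siScramble it gave 4 each time, beside 116 to 367. The difference between comparisons was called for 4 probes in 14 of 16 alternatives and for 5 with the replicate block and at an adjusted p of 0.05, *Rrm2* A_43_P17490 being the addition. With the replicate block on 8 arrays, member counts were 12 and 6, beside 6677 and 1692 of all probes. Replicates of the same number correlated between the comparisons by 0.39, 0.17, 0.04 and 0.56, so the numbers do not clearly pair the samples.

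The other lists counted 17, 19 and 8 called probes against wt (nucleotide, proliferation, reference, in this order throughout) and 3, 8 and 2 against siScramble. Agilent-processed intensities gave 4, 1 and 3 against wt and 0, 0 and 0 against siScramble. Offset 10 gave 9 (nucleotide) and 3 (reference) against wt and 5 (proliferation) and 0 (reference) against siScramble. Loess only and Aquantile each gave 4 reference probes against wt. With siPax8 in Cy3 only there were 7, 10 and 3 against wt and 7 (nucleotide) and 4 (reference) against siScramble, and in Cy5 only 0, 1 and 0 against siScramble. An adjusted p of 0.05 gave 26 (nucleotide) against wt and 16, 17 and 4 against siScramble. Calls over the whole array moved as well, from 6228 against wt and 831 against siScramble to 10726 and 3624 at this threshold. They were 1754 and 29 with Agilent-processed intensities and 4476 and 659 with offset 10. Loess only gave 6343 against wt. With siPax8 in Cy3 only they were 3460 and 3470, and in Cy5 only 8022 and 208. Against siScramble, slide as a random block gave 8, 14 and 4, a dye term 12 and 15 (nucleotide, proliferation), and the replicate block and the joint fit of both comparisons each 7 (nucleotide). Leaving out a replicate gave 5 to 16, 12 to 20 and 3 to 8 against wt and 0 to 2, 0 to 2 and 0 to 1 against siScramble. Over the whole array, the slide block gave 2409 probes against siScramble, the dye term 2578, the replicate block 1692 and the joint fit 1728. Without a replicate, 3351 to 6931 probes of the array were called against wt and 116 to 367 against siScramble.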
